A study of Mus musculus with 4 samples.

Results

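The tubulin genes of DN4 thymocytes were compared between mice with and without a Cre recombinase for induced deletion of Ikzf1, the gene of the transcription factor Ikaros. The genes were 10 isotypes chosen by symbol: the beta-tubulin genes Tubb2b, Tubb2a, Tubb3, Tubb5 and Tubb6, the alpha-tubulin genes Tuba1a, Tuba1b, Tuba4a and Tuba8, and the gamma-tubulin gene Tubg1. Of these, 9 had a probe set that the array's annotation gives exactly 1 gene symbol, out of 19938 such genes. Tuba1b, the 1 isotype without such a probe set, is covered only by probe sets shared with its relatives. Tubb2b was picked because its value was known to be lower in the mice with the recombinase, and its relatives were added to set beside it. The differences of these 9 genes between the groups are therefore given as a description, with no test.

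Microtubules are hollow polymers of alpha- and beta-tubulin dimers. Gamma-tubulin, in ring complexes at the centrosome, seeds their growth. Mammals have several genes for each kind, called isotypes, whose proteins are very similar except at the acidic C-terminal tails that carry much of the post-translational modification. Dividing cells such as early thymocytes need microtubules for the mitotic spindle, and T cells reorient them towards the contact with a partner cell. Tubb2a, Tubb2b and Tubb3 are best known from neurons, where mutations of the human TUBB2B and TUBB3 cause malformations of the cortex, while Tubb5 is the beta isotype of most dividing cells.

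The arrays came from 4 mice, all with floxed Ikzf1 alleles (Ikf/f), all given 4 daily doses of 50 mg/kg tamoxifen and all analysed 24 h after the last injection. The 2 Cre+ mice (129 and 135) carried Rosa26-CreERT2, a tamoxifen-activated Cre recombinase driven from a locus active in nearly all cell types, so that deletion was possible in other cell types too. The 2 Cre- mice (131 and 137) were Ikf/f without the recombinase, per the series' design text, although the treatment text of all 4 samples names the Cre line. No Cre+ mice without floxed alleles were analysed here, so that loss of Ikaros and activity of the recombinase cannot be told apart. DN4 cells, the thymic stage without CD4 and CD8 that follows beta selection, were sorted from each mouse. Each mouse gave 1 array, and ages are not given in the labels.

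The arrays carried 35556 probe sets, with log2 values between 3.14 and 14.4, and Pearson correlations between arrays, taken over probe sets and not over independent samples, of 0.994 to 0.997. Array medians lay between 6.85 and 6.88, the 25th percentiles between 5.39 and 5.42 and the 75th percentiles between 9.10 and 9.19. Ikzf1 itself was at 12.06 and 11.99 in Cre+ cells, against 12.07 and 12.11 in Cre- cells. The difference was -0.07 (limma's moderated SE 0.04). The position of its probes relative to the floxed part and the extent of the deletion were not analysed here. Of the T lineage markers, Cd3e lay between 12.8 and 13.2 and Thy1 between 13.1 and 13.2 on all 4 arrays. DN4 cells are defined by little surface CD25 and no CD4 or CD8, and the transcripts of these proteins were not all dim. Il2ra (CD25) was at 11.07 and 10.71 in Cre+ cells, against 11.58 and 10.96 in Cre- cells. Cd8b1 was at 11.50 and 11.59 in Cre+ cells, against 11.72 and 11.91 in Cre- cells. 

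Among the beta-tubulin genes, Tubb2b stood apart. Its log2 value was 8.38 and 8.61 in Cre+ mice 129 and 135, against 10.05 and 10.05 in Cre- mice 131 and 137. Both Cre+ values lay far below both Cre- values: the gap between the nearest mice of the 2 groups was 1.44, while mice of the same group differed by 0.226 at most. The means were 8.49 ± 0.160 in Cre+ cells and 10.05 ± 0.00243 in Cre- cells (SD, n = 2 each). The difference was -1.56 on the log2 scale (limma's moderated SE 0.10), which is 2.94-fold lower in Cre+ cells. Among 19938 genes, 0 had a lower difference. In bulk RNA of this kind, fewer cells with the transcript and less transcript per cell cannot be told apart.

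Tubb2a, whose protein is nearly the same as that of Tubb2b, was also lower in the Cre+ mice but by less. It was at 8.96 and 9.32 in Cre+ cells, against 9.72 and 9.63 in Cre- cells. The groups did not overlap, but the gap between them, 0.314, was smaller than the 0.359 that separated the 2 Cre+ mice. The difference was -0.54 (SE 0.14), or 1.45-fold, and was -0.36 without Cre+ mouse 129 and -0.72 without Cre+ mouse 135. The Tubb2b difference minus that of Tubb2a was -1.02. A further probe set, which the annotation lists with Tubb2a, Tubb2b and the pseudogene Tubb2a-ps2 together, cannot be assigned to any of them. It was at 8.01 and 8.28 in Cre+ cells, against 9.22 and 9.05 in Cre- cells, a difference of -0.99 (SE 0.13) that lies between those of the 2 single genes. Because the 2 transcripts are close copies, probes of one may bind the other. This was not tested, so the Tubb2a value may hold Tubb2b signal and the reverse.

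**Figure D1:**
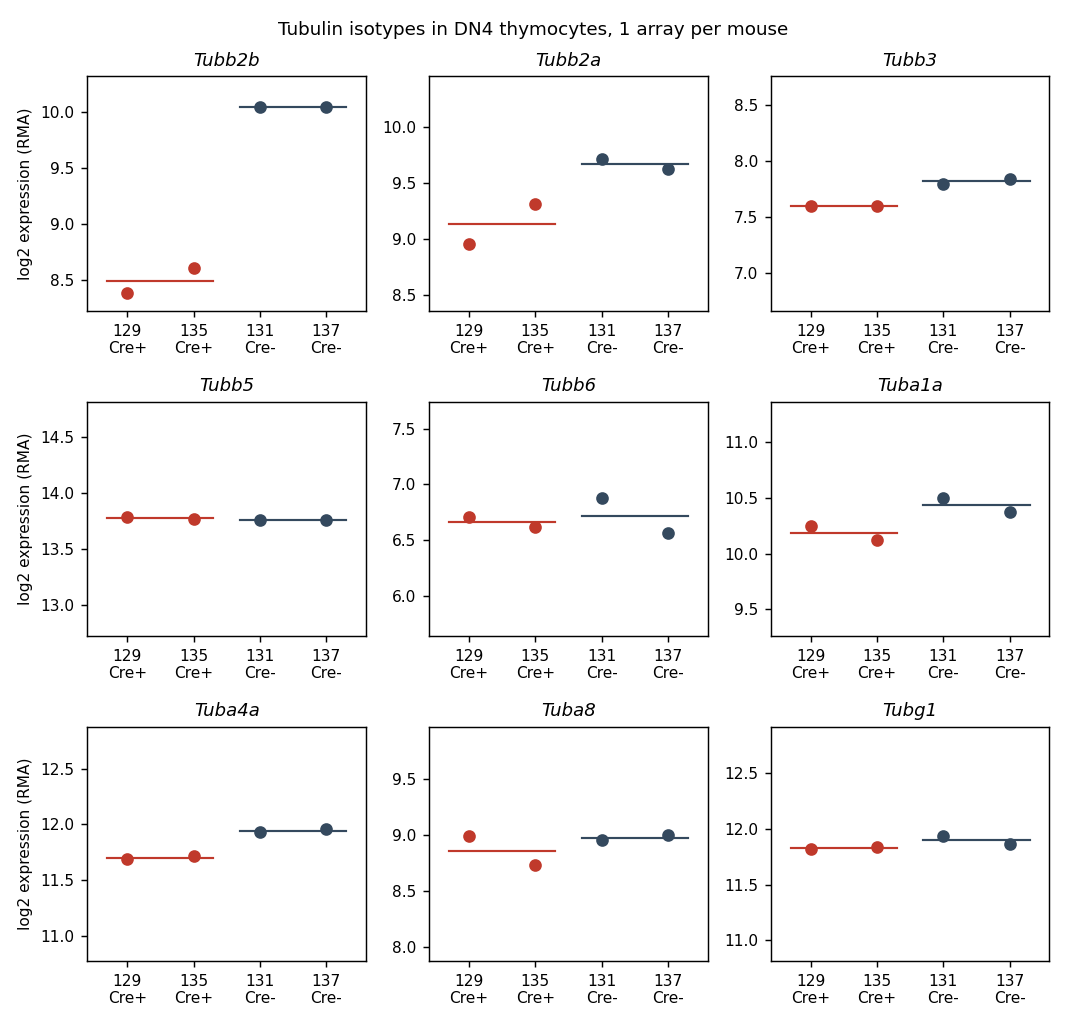
Log2 expression (RMA) of 9 tubulin genes in each mouse, with the 2 Cre+ mice (red) left of the 2 Cre- mice (dark), and lines at the group means. The axes differ in level but span the same log2 range, so that the separation of the groups, not the level, can be compared between panels. Tubb2b shows the widest separation, at 8.38 and 8.61 in Cre+ mice against 10.05 in both Cre- mice, and Tubb5 is flat near 13.8.

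Tubb3, the class III beta-tubulin used as a marker of neurons, was slightly lower in the Cre+ mice. It was at 7.60 and 7.60 in Cre+ cells, against 7.79 and 7.84 in Cre- cells, a difference of -0.22 (SE 0.09). The gap between the groups, 0.192, was wider than the spread within either. Tubb6 was at 6.71 and 6.62 in Cre+ cells, against 6.88 and 6.57 in Cre- cells, so the groups overlapped (-0.06, SE 0.14). The sign of the Tubb6 difference depended on a Cre- mouse, at 0.0952 without mouse 131 and -0.22 without mouse 137.

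Tubb5, the beta-tubulin of most dividing cells, had nearly the same value on all 4 arrays. It was at 13.79 and 13.77 in Cre+ cells, against 13.76 and 13.76 in Cre- cells, a difference of 0.02 (SE 0.02). The groups did not overlap, but the gap was 0.00845. Its signal lay close to the highest value on any array, 14.4, and whether signals this high still follow transcript numbers was not tested. Probe sets differ in affinity, so that the values of different genes do not rank their transcript numbers. Set against its own array, Tubb2b lay below the 75th percentile in the Cre+ mice and above it in the Cre- mice.

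The alpha-tubulin genes differed by less than the Tubb2 pair. Tuba4a, an isotype whose C-terminal tail lacks the tyrosine of other alpha-tubulins, was at 11.69 and 11.71 in Cre+ cells, against 11.93 and 11.96 in Cre- cells. This difference of -0.24 (SE 0.04) was small but even: the gap between the groups, 0.214, was far wider than the 0.0261 between the Cre+ mice and the 0.0346 between the Cre- mice. Tuba1a, the alpha-tubulin best known from the developing brain, was at 10.25 and 10.12 in Cre+ cells, against 10.49 and 10.37 in Cre- cells (-0.25, SE 0.08). Here the gap of 0.126 was about as wide as the spread within each group, 0.124 in the Cre+ mice and 0.119 in the Cre- mice. Tuba8 was at 8.99 and 8.73 in Cre+ cells, against 8.96 and 9.001 in Cre- cells. Its groups overlapped, and the difference of -0.12 (SE 0.11) was 0.00934 without Cre+ mouse 135 and -0.25 without Cre+ mouse 129.

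Tuba1b, Tuba1a and Tuba1c, which lie side by side on chromosome 15, share 3 probe sets, and Tuba1b and Tuba1c share 1 more. None of these 4 can be given to a single gene. Their values ran from 13.5 to 13.8 on all 4 arrays, and their differences lay between -0.01 and 0.02, with overlapping groups in each case. These signals, like those of Tubb5, are at the bright end of the scale. The single-gene probe set of Tuba1a was lower in the Cre+ mice, with groups that did not overlap, unlike those of the shared sets, and the parts of the 3 transcripts in the shared signal were not analysed here.

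Tubg1, the main gamma-tubulin of dividing cells, was at 11.82 and 11.83 in Cre+ cells, against 11.94 and 11.86 in Cre- cells. The difference was -0.07 (SE 0.04), and the gap of 0.0247 was smaller than the 0.0800 between the Cre- mice.

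Over the 9 genes, 8 had a lower mean in Cre+ cells and 1 a higher mean, while 54.1% of all 19938 genes had a lower mean. The Cre+ values lay wholly below the Cre- values in 6 of the 9 (Tubb2b, Tubb2a, Tubb3, Tuba1a, Tuba4a and Tubg1) and wholly above them in 1 (Tubb5). Of all genes, 20.3% were lower without overlap and 16.1% higher without overlap. The median of the 8 isotypes other than Tubb2b was -0.17, against a median of -0.01 over all genes. Tubb2b minus that median was -1.39 on the log2 scale. The 5th and 95th percentiles of the differences of all genes were -0.18 and 0.22, and Tubb2b, Tubb2a, Tuba1a, Tuba4a and Tubb3 lay below the 5th. None of this is a test, since the genes were chosen with their differences known.

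**Figure D2:**
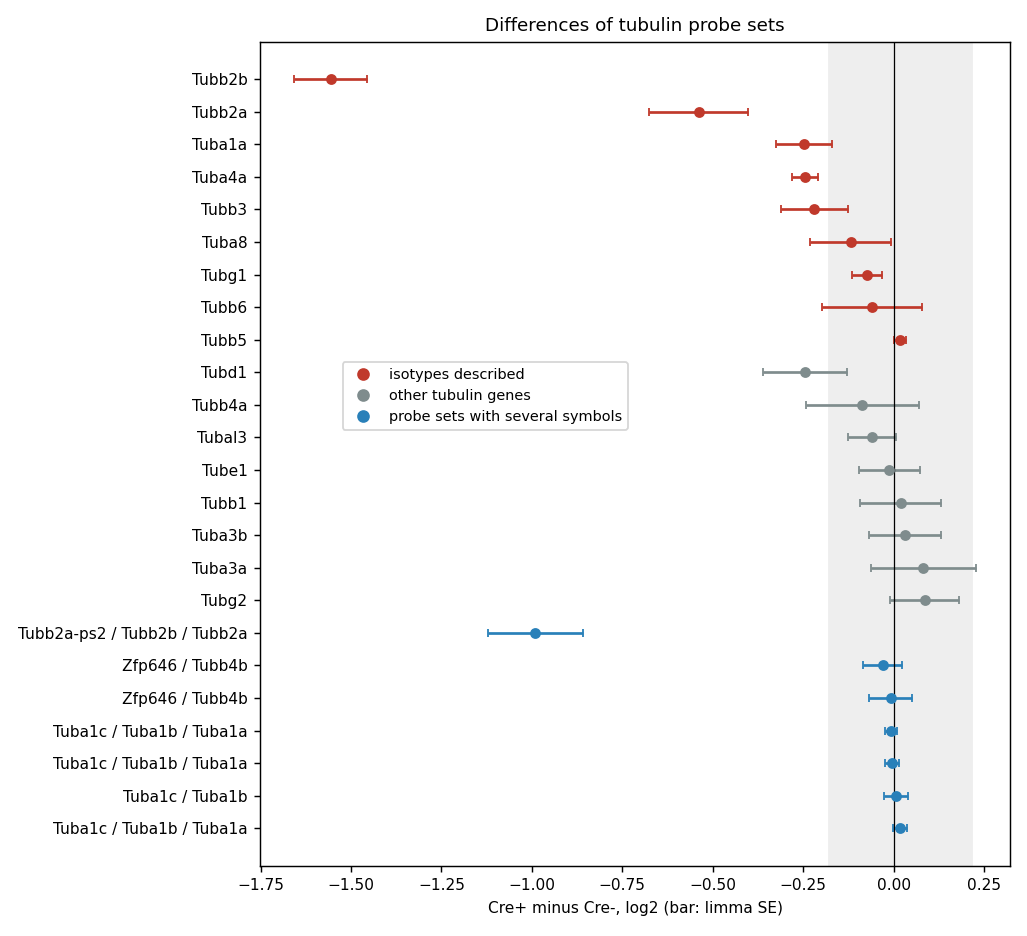
Difference between Cre+ and Cre- cells on the log2 scale (x axis, bars are limma's SE) for the 9 isotypes (red), 8 other tubulin genes (grey) and 7 probe sets with several symbols (blue), with 2 mice in each group. The shaded band runs from the 5th to the 95th percentile of all genes, -0.18 to 0.22. Tubb2b at -1.56, the probe set shared by the Tubb2 genes at -0.99 and Tubb2a at -0.54 lie far to its left.

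The other tubulin genes were not among the 10 isotypes and were tested, although this list too was drawn up with earlier results of these data known. Of 11 listed, 8 were measured, 4 with a higher and 4 with a lower mean in Cre+ cells (median 0.00). In the limma fit to the whole array, 0 of them had an unadjusted p under 0.05, while 6.86% of all genes did. After Benjamini-Hochberg adjustment, 0 had an adjusted p under 0.05. The same test called 0% of all 35556 probe sets. Run on only those 21789 probe sets that carry a single symbol, it called 1.22%, and again 0 of these 8. The farthest from 0 was Tubd1, the delta-tubulin of centrioles, at 7.94 and 8.18 in Cre+ cells, against 8.30 and 8.31 in Cre- cells (-0.24, SE 0.12, limma adjusted p = 0.843). The epsilon-tubulin gene Tube1 differed by -0.01 (SE 0.08). Tubg2, which lies next to Tubg1 on chromosome 11, differed by 0.09 (SE 0.10). The platelet beta-tubulin gene Tubb1 differed by 0.02 (SE 0.11), the neuronal Tubb4a by -0.09 (SE 0.16), the testis genes Tuba3a and Tuba3b by 0.08 (SE 0.15) and 0.03 (SE 0.10), and Tubal3 by -0.06 (SE 0.07). Tubb4b, a widely expressed beta-tubulin, has 2 probe sets that the annotation lists together with another gene. They differed by -0.03 (SE 0.05) and -0.01 (SE 0.06), with overlapping groups.

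Tubb2a and Tubb2b are neighbours on chromosome 13, and the genes around them were examined. Next to the pair lie Bphl on the Tubb2a side and Psmg4, which encodes a proteasome assembly chaperone, on the Tubb2b side. Psmg4 was at 10.13 and 10.13 in Cre+ cells, against 10.29 and 10.24 in Cre- cells, a difference of -0.13 (SE 0.06, limma adjusted p = 0.817). Bphl was at 8.32 and 8.43 in Cre+ cells, against 8.49 and 8.48 in Cre- cells, a difference of -0.10 (SE 0.09, limma adjusted p = 0.997). The next genes on the Tubb2b side, Slc22a23 and Pxdc1, differed by 0.01 (SE 0.10) and -0.12 (SE 0.09), and neither passed. The third on the other side, Ripk1, had no probe set with 1 gene symbol. None of the 4 measured neighbours passed the test, which called 0% of all 35556 probe sets. Their differences were all smaller in size than that of Tubb2a, the member of the pair with the smaller difference.

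The 5 genes whose 4 values, each less its 4-array mean, lay nearest to those of Tubb2b were 1700048O20Rik, Clec12a, Fignl1, Nkg7 and Mcoln3. The Euclidean distance over 4 arrays was 0.305, 0.482, 0.487, 0.545 and 0.572 in that order. This measure picks genes with a difference of like size, so that the differences themselves are no further result. 1700048O20Rik was at 7.86 and 8.03 in Cre+ cells, against 9.29 and 9.14 in Cre- cells. Clec12a, an inhibitory lectin receptor of myeloid cells, was at 7.82 and 8.09 in Cre+ cells, against 9.07 and 8.999 in Cre- cells. Nkg7, a cytotoxic granule gene, was at 8.88 and 8.91 in Cre+ cells, against 10.03 and 9.85 in Cre- cells. In these genes, as in Tubb2b, mice of one group lay close together. Mcoln3, an endolysosomal channel gene, was less even, at 6.60 and 6.77 in Cre+ cells, against 7.70 and 8.47 in Cre- cells.

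**Figure D3:**
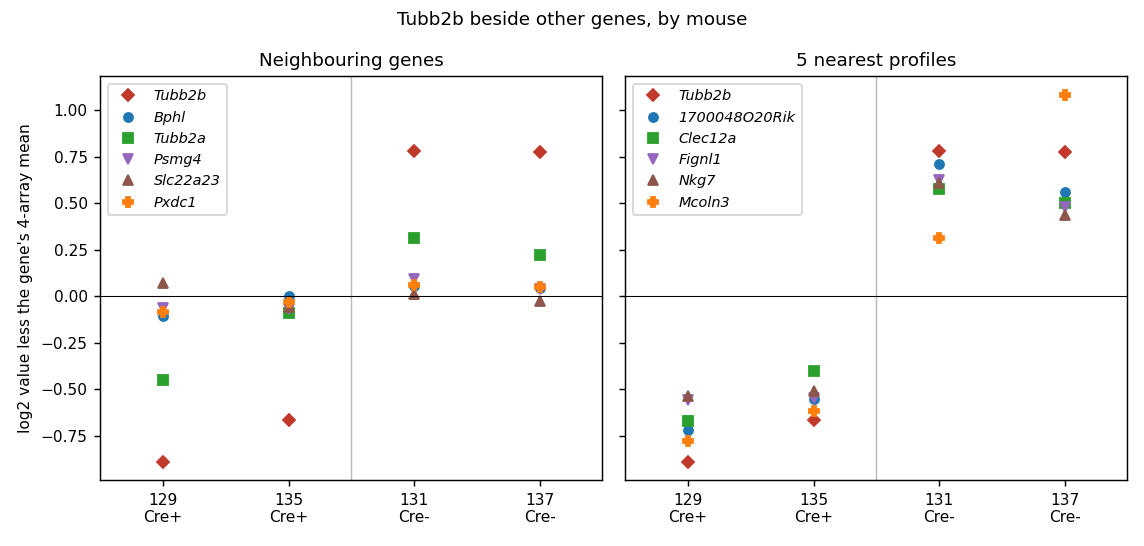
Log2 values less each gene's 4-array mean, by mouse (2 Cre+ left of 2 Cre-), for Tubb2b (red diamonds) with its measured neighbours on chromosome 13 (left panel) and with the 5 genes of nearest profile (right panel). Among the neighbours, Tubb2a has the widest separation of the groups; the 5 nearest profiles separate the groups by about as much as Tubb2b because they were chosen for that.

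Genes that fold tubulin, seed, stabilise, cut, modify or travel along microtubules were compared as 8 lists of 170 genes, including the other tubulin genes above, of which 160 were measured. Of these, 75 had a higher and 85 a lower mean in Cre+ cells. With limma on the whole array, 0 passed at an adjusted p under 0.05, and 8 had an unadjusted p under 0.05, while 6.86% of all genes did. Among probe sets with 1 gene symbol, 1 gene passed, Fignl1, which was lower. In that test 0.285% of probe sets were called lower and 0.936% higher.

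Fignl1 belongs to the fidgetin family of AAA ATPases, some of which cut microtubules, and the gene itself is known for its role in homologous recombination. It was at 9.08 and 9.09 in Cre+ cells, against 10.26 and 10.12 in Cre- cells. The gap between the groups, 1.03, was far wider than the spread within either group. The difference was -1.10 (SE 0.08, 2.15-fold lower), with limma adjusted p = 0.0758 over all probe sets and 0.000832 among those with 1 gene symbol. Of the 11 alternatives that kept all mice, 3 called it. These were the filters above the 25th percentile and above the median of level (limma adjusted p = 0.0395 and 0.0166), and that restriction to 1 gene symbol. Fignl1 is also 1 of the 5 nearest profiles above, and in the annotation it lies next to Ikzf1, the targeted gene, on chromosome 11. Whether the deletion acts on it in place was not tested. The other 16 measured destabilisers and severing enzymes had differences between -0.12 and 0.12 on the log2 scale, and the list had a median of 0.01. Stmn1, which encodes stathmin, a protein that binds free tubulin dimers, was at 13.12 and 13.17 in Cre+ cells, against 13.10 and 13.11 in Cre- cells (0.04, SE 0.03). Kif24, a depolymerising kinesin of centrioles, differed by -0.12 (SE 0.09).

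Most genes of tubulin folding had slightly lower means in Cre+ cells. Newly made tubulin passes from prefoldin to the CCT chaperonin and then to the tubulin cofactors that form the dimer. Of the 21 genes of this path, all measured, 18 had a lower and 3 a higher mean in Cre+ cells. Of all genes, 54.1% had a lower mean. The median of the list was -0.05, against -0.01 over all genes. Its log2 summed level was 15.73 and 15.81 in Cre+ cells, against 15.85 and 15.79 in Cre- cells. The groups overlapped, with Cre+ mouse 135 between the Cre- mice. None of the 21 genes had an unadjusted p under 0.05, while 6.86% of all genes did. The CCT subunit genes Cct5 and Tcp1 differed by -0.09 (SE 0.04) and -0.11 (SE 0.05), and the prefoldin gene Pfdn5 by 0.13 (SE 0.06). Ttc5, which encodes the factor that starts the decay of tubulin mRNAs when free tubulin is in excess, differed by -0.14 (SE 0.11). This gene was named after its value was seen.

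Genes of microtubule nucleation showed no common direction, with 8 of 19 higher and 11 lower in mean (median -0.02). Haus8, an augmin subunit that branches spindle microtubules, differed by 0.24 (SE 0.08), with limma adjusted p = 0.678. The ring complex subunit gene Mzt1 differed by -0.09 (SE 0.04) and the centrosome gene Cep192 by -0.12 (SE 0.08). Among microtubule-associated and plus-end proteins, 16 of 26 were higher and 10 lower (median 0.01). Map4, the main stabilising protein outside neurons, was at 9.26 and 9.27 in Cre+ cells, against 9.42 and 9.56 in Cre- cells (-0.23, SE 0.08, limma adjusted p = 0.722). Its groups did not overlap. The plus-end gene Mapre2 differed by 0.12 (SE 0.07) and Clip4 by -0.12 (SE 0.10).

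Enzymes that modify tubulin were higher in mean in 12 of 20 cases and lower in 8 (median 0.02). Vash2, one of the vasohibins that remove the C-terminal tyrosine of alpha-tubulin, had the largest difference among them. It was at 6.45 and 6.70 in Cre+ cells, against 6.15 and 5.96 in Cre- cells, a difference of 0.52 (SE 0.14) that did not pass (limma adjusted p = 0.521). All 4 of its values lay below the array medians. The deacetylase gene Hdac6 differed by 0.23 (SE 0.09) and the polyglutamylase gene Ttll1 by -0.15 (SE 0.09).

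Motor genes of transport were higher in mean in 20 of 29 cases, with a median of 0.03. Of these, 9 were higher and 2 lower without overlap of the groups, against 16.1% and 20.3% of all genes. Kif13a, a kinesin of endosomes, was at 7.24 and 7.10 in Cre+ cells, against 6.52 and 6.83 in Cre- cells (0.49, SE 0.14, limma adjusted p = 0.565). Kifap3, the adaptor of the kinesin-2 motor, differed by 0.28 (SE 0.09) and the dynein light chain gene Dynlrb1 by 0.08 (SE 0.03), with limma adjusted p = 0.665 and 0.692.

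Mitotic kinesins and cell cycle genes bear on how many cells were dividing. They had lower means in 17 of 20 cases, all by little (median -0.03, lowest -0.14), against 54.1% of all genes. None had an unadjusted p under 0.05, while 6.86% of all genes did. The spindle kinase genes Aurka, Plk1 and Aurkb differed by -0.14 (SE 0.11), -0.09 (SE 0.07) and -0.07 (SE 0.06), with overlapping groups. The log2 of the summed level of the list was 15.76 and 15.88 in Cre+ cells, against 15.88 and 15.83 in Cre- cells. The groups overlapped. The mean level of the list was 11.04 in Cre+ mouse 129 and 11.18 in Cre+ mouse 135, against 11.15 and 11.13 in Cre- cells. Mouse 129 thus lay below both Cre- mice and mouse 135 above both. The part of cell division in the tubulin differences was not tested.

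**Figure D4:**
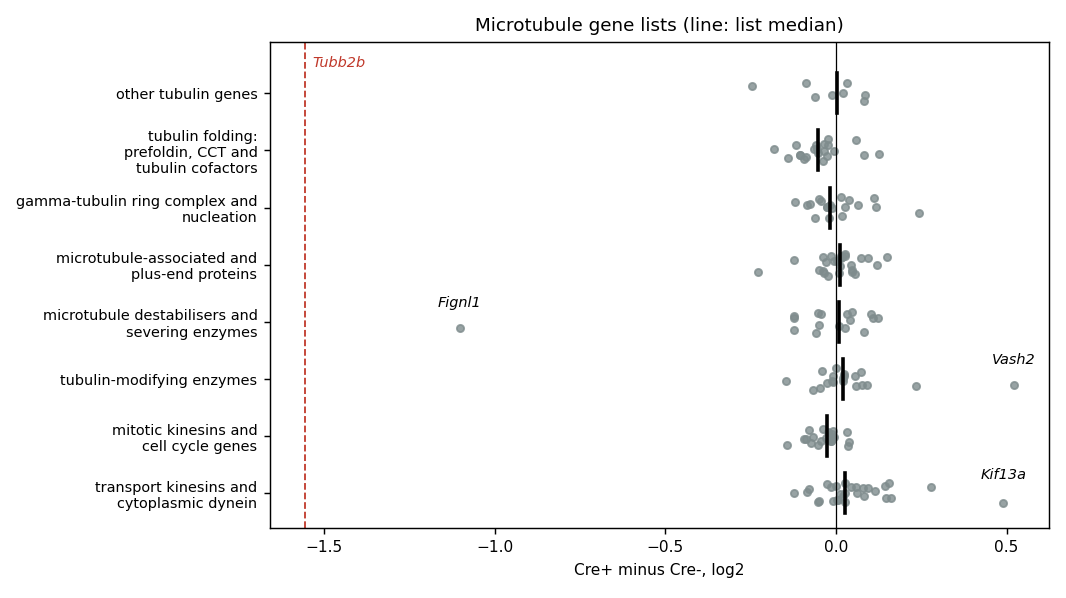
Difference between Cre+ and Cre- cells on the log2 scale (x axis) for each measured gene of 8 microtubule lists (points), with the list median (black line) and the Tubb2b difference of -1.56 (dashed). Medians lie between -0.05 and 0.03, and Fignl1 at -1.10, Vash2 at 0.52 and Kif13a at 0.49 lie farthest from them.

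Markers of other cells were read beside the Tubb2b result. The neuron list had all 7 genes measured, with a log2 summed level of 8.75 and 8.72 in Cre+ cells, against 8.78 and 8.66 in Cre- cells, and overlapping groups. The natural killer and gamma delta list (6 of 6 genes) summed to 9.85 and 9.83 in Cre+ cells, against 10.56 and 10.40 in Cre- cells. That shift came with Nkg7 (-1.04), while Ncr1, the defining receptor of natural killer cells, was between 4.74 and 4.77 on all 4 arrays, below the 25th percentile. The thymic epithelium and stroma list (8 of 8) summed to 10.03 and 10.06 in Cre+ cells, against 10.23 and 10.09 in Cre- cells, with Epcam at -0.48 (SE 0.15) and Foxn1 at -0.00 (SE 0.09). The T lineage list (10 of 12) summed to 15.42 and 15.29 in Cre+ cells, against 15.13 and 15.14 in Cre- cells. In it the receptor chain genes Cd3d, Cd3g and Cd3e differed by 0.66 (SE 0.08), 0.37 (SE 0.05) and 0.25 (SE 0.04). These 3 were called higher among probe sets with 1 gene symbol, as were 0.936% of those probe sets. Over all probe sets none of the 3 passed (limma adjusted p = 0.182, 0.251 and 0.270). Cd2 of the same list differed by -0.52 (SE 0.14) without overlap. The CD4, CD8 and mature T cell list (4 of 6) summed to 11.81 and 11.93 in Cre+ cells, against 12.02 and 12.23 in Cre- cells. Its members did not go one way: Cd8a, Cd8b1 and Ccr7 differed by -0.61 (SE 0.21), -0.27 (SE 0.08) and -0.10 (SE 0.09), and Cd4 by 0.54 (SE 0.11), each without overlap of the groups. The B cell list (6 of 7) summed to 10.57 and 10.43 in Cre+ cells, against 10.34 and 10.33 in Cre- cells, and Cd79b was its 1 gene with a higher mean (0.25, SE 0.09). The other 5 B cell genes had lower means (list median -0.19), among them Cd79a at -0.35 (SE 0.12) and Pax5 at -0.19 (SE 0.10), both without overlap. In these last 5 lists the groups did not overlap. Of all single genes, 20.3% were lower and 16.1% higher without overlap. The part of these lists in the tubulin differences, like that of the single genes named below, was not tested. The macrophage and dendritic (8 of 8), DN2 and DN3 (6 of 6) and erythroid and platelet (5 of 8) lists had overlapping sums, with median differences of 0.01, -0.14 and 0.01. Single members lay away from these medians in both directions. The lysozyme gene Lyz2 of the macrophage list differed by 1.04 (SE 0.18) and the Notch target Hes1 of the DN2 and DN3 list by 0.91 (SE 0.05). Both were called higher among probe sets with 1 gene symbol but not over all probe sets (limma adjusted p = 0.327 and 0.0570). In the macrophage list H2-Aa and Cd74 differed by -0.57 (SE 0.38) and -0.47 (SE 0.40), with overlapping groups. In the DN2 and DN3 list Cd44 and Dtx1 differed by -0.42 (SE 0.10) and -0.25 (SE 0.12) without overlap, and Il2ra by -0.38 (SE 0.23) with overlap.

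The promoters of tubulin genes were read from RefSeq's table (build GRCm38.p6). Those of 7 of the 10 isotypes were used: Tubb2a, Tubb3, Tubb5, Tuba1a, Tuba1b, Tuba4a and Tuba8. Tubb2b, Tubb6 and Tubg1 had no sequence used here. Shown are the 250 bases before the annotated start, in the direction of the gene, of Tubb2a, the neighbour of Tubb2b that was also lower in Cre+ cells (chr13:34078009-34078258, minus strand), of Tuba1a and Tuba4a, lower by less (chr15:98953502-98953751 and chr1:75219295-75219544, both minus strand), and of Tubb5, the isotype with almost no difference (chr17:35838302-35838551, minus strand). Capitals mark GGGAA, the core of the sequence that Ikaros binds, on either strand.
Tubb2a: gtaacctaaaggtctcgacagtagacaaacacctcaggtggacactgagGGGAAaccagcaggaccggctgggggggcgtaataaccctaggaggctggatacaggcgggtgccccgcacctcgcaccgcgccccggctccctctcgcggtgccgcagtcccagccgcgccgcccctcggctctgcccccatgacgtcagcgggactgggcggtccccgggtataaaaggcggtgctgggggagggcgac
Tuba1a: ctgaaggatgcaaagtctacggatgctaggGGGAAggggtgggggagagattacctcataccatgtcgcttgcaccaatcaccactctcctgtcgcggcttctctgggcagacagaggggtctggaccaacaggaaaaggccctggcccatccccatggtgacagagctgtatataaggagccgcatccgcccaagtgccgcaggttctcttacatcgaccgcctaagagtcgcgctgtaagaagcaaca
Tuba4a: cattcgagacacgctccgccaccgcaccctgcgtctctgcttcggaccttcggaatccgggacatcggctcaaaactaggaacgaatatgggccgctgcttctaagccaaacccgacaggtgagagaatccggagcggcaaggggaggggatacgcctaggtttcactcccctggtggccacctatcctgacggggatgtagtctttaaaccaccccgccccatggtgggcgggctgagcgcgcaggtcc
Tubb5: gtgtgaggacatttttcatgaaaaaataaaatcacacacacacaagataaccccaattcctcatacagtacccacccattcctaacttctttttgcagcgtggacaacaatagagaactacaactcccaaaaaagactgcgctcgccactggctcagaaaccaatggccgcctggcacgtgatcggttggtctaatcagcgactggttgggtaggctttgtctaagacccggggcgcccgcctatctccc
GGGAA was found on either strand in 3 of the 7 promoters (Tubb2a, Tuba1a and Tuba1b), and 56.2% of all 32851 promoters of the same length hold it. Tuba4a and Tubb3, with differences of -0.24 and -0.22 close to the -0.25 of Tuba1a, hold none, and neither do Tubb5 and Tuba8. In Tubb2a it starts 201 bases before the annotated start and in Tuba1a 220 bases before it. The promoters also differ in their core elements. TATAAA was found in Tubb2a alone of the 7, starting 29 bases before the start, while 12.4% of all promoters hold it. CCAAT was found in Tubb3, Tubb5 and Tuba1a, with 2 matches in Tubb5, against 33.8% of all promoters. GGGCGG, the GC box, was found in 5 of the 7, all but Tubb5 and Tuba8, against 32.7%. No match of one motif overlapped another in these 7 promoters. The share of G and C was 68.4% in Tubb2a, 56.8% in Tuba1a, 61.6% in Tuba4a and 49.2% in Tubb5. Such matches describe these windows and are not binding sites.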

How the data were processed

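Total RNA of sorted DN4 cells from 4 mice was labelled with biotin in 2 rounds of amplification and read on Affymetrix mouse gene arrays, 1 per mouse, per the labels' protocols. The authors deposited 1 log2 value per probe set and mouse, made with RMA (robust multi-array average), per the submitters' processing notes. That the scale is log2 was read from the values. The RMA version, any filter and the build behind the array's annotation are not given in the sources used. No further normalization was applied, and 0 columns of other samples were present.

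Probe sets were named through the platform's annotation, in which 21789 have exactly 1 gene symbol, 1621 several and 12146 are not listed. A gene was represented by its probe set with the highest mean. No gene was given the value of a probe set with several symbols.

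Groups follow the Cre status in the titles, with each mouse as 1 replicate. All 35556 probe sets were fitted with limma 3.58.1 in R 4.3.3 (lmFit, eBayes with trend, 2 residual and 2.99 prior degrees of freedom), with Benjamini-Hochberg adjustment and a threshold of 0.05. An exact permutation test of 2 against 2 mice could not give a two-sided p under 0.333. The number of arrays limits the precision of every value.

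The isotypes and the gene lists were chosen with earlier results of these data known. Genes named are the isotypes, other tubulin genes, in each list the 3 with the smallest p and any that passed, 3 neighbours on each side of Tubb2b and the 5 nearest profiles. Marker genes, and genes said to be looked up later, stand outside this rule. Alternatives were normalization, filters on dim probe sets, the variance model, array weights, the features tested, sex (from Xist and Kdm5d, 1 female and 1 male per group) as a block, each mouse left out, and averaged probe sets.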

Additional observations from a re-analysis of the deposited data

How the results depend on the processing

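The Tubb2b difference lay between -1.56 and -1.55 under the 11 alternatives that kept all mice, and between -1.67 and -1.44 with each mouse left out. Of those 11, most could not move it. Filters, the variance model, the restriction to 1 gene symbol and the sex block leave a difference of these group means as it was. Averaging changes nothing for an isotype with 1 probe set, and array weights also left the value at -1.56. Only the changes of normalization moved it. The median of the other isotypes lay between -0.22 and -0.13 with a mouse left out and was -0.22 among probe sets above the median level, where Tubb6 drops out. Tubb2b minus that median lay between -1.53 and -1.22 with a mouse left out. Over all 35556 probe sets limma called 0, with 2356 at an unadjusted p under 0.05. It called 10 after centring of the arrays, 25 above the 25th percentile of level, 80 above the median and 266 among probe sets with 1 gene symbol. The filters and the restriction test fewer probe sets and also refit limma's variance model on those kept. The parts of these changes in the counts, like the cause of the 10, were not tested. The count of microtubule genes called, 0, was 1 under both filters and under the restriction (Fignl1 each time). A fit without a mouse leaves 1 array in a group, so counts of calls from such fits are not given. Of the single isotypes, Tubb6 and Tuba8 changed sign in 1 alternative each, and the other 7 in none. Tubb5 was 0.03 after centring. The mouse numbers pair no mice across the groups. Sex as a block pairs 129 with 131 and 135 with 137, and it left the differences the same, as each group held 1 female and 1 male, with 0 probe sets called. With 2 arrays per group and no signal over background at hand, the smaller isotype differences are not resolved.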
